A study of Mus musculus with 12 samples.

Results

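The C/EBP transcription factor genes were followed in mouse peritoneal macrophages with and without IκBζ. The family was taken as 7 genes, Cebpa, Cebpb, Cebpd, Cebpe, Cebpg, Cebpz and Ddit3, and each was matched to a probe set annotated with that symbol alone. Such a probe set existed for 6 of the 7, among 19938 genes tested in all, and Cebpz was not analysed here. RNA from peritoneal cells of female mice was hybridised to 12 one-colour Affymetrix whole-transcript arrays, 3 in each of 4 groups. The groups were Nfkbiz-/- cells given 1 µg/ml lipopolysaccharide (LPS) for 4 h, C57Bl/6 cells given the same LPS, untreated Nfkbiz-/- cells and untreated C57Bl/6 cells, called KO and WT here. Nfkbiz encodes IκBζ, a nuclear IκB protein, and LPS is the bacterial cell-wall component sensed by TLR4. The cells were washed from the peritoneal cavity and cultured briefly, and the labels name no sort, gate, mouse age or allele design. Nothing in them ties a replicate to its own mouse. The p-values therefore reflect only how far these samples scatter, and that scatter may be technical.

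C/EBP proteins bind DNA as dimers through a basic leucine zipper (bZIP), and they shape myeloid development, the acute-phase response and inflammatory gene expression. C/EBPα is the founding member and drives granulocyte and monocyte development. C/EBPβ and C/EBPδ are the members best known from activated macrophages, where they act with NF-κB at genes such as Il6. C/EBPε is needed late in granulocyte development, C/EBPγ lacks a strong activation domain and is known as a partner that modulates other members, and Ddit3 encodes CHOP, a stress-induced member whose dimers do not bind the usual C/EBP sites.

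Promoter sequences are shown for Cebpa and Cebpb, the 2 members that LPS changed in both genotypes. They come from the RefSeq promoter table (build GRCm38.p6), in which Cebpa, Cebpb, Cebpg and Ddit3 were matched, and Cebpd, Cebpe and Cebpz were not. The 250 bases before the annotated start are given 5′ to 3′, with capitals for TATAAA in Cebpa (chr7:35119043-35119292, plus strand) and for TGACG on either strand in Cebpb (chr2:167688665-167688914, plus strand).

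Cebpa: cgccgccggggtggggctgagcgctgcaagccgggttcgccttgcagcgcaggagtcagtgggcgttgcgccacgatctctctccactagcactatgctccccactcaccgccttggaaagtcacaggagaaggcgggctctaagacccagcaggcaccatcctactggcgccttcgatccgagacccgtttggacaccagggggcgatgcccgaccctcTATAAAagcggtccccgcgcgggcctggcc

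Cebpb: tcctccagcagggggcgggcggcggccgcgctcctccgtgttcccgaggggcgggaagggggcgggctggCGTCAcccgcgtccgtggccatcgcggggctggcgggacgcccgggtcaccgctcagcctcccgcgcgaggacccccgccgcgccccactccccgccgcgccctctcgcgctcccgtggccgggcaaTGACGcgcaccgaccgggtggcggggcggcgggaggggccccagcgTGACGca

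In windows of 300 bases (250 before and 50 after the start), Cebpa held TATAAA with its first base at -30, and Cebpb held the cyclic AMP half-site TGACG at -180 (as CGTCA, on the other strand), -53 and -7, with a TATAAA at 22 that lies past the stretch shown. Across all 32851 promoter windows in that table, 13.6% held TATAAA and 20.8% held TGACG, both searched on both strands after the sequences had been seen. No match was found in the Cebpa, Cebpb or Cebpg window for the C/EBP site TTGCNNAA (10.8% of all windows), the NF-κB site GGANNTTCC (4.3%), the STAT site TTCNNNGAA (8.3%), the full cyclic AMP element TGACGTCA (1.8%), which contains the half-site, the C/EBP-ATF composite TGATGNAA (4.0%) or the AP-1 site TGANTCA (7.8%). The Ddit3 window held 1 of these, an AP-1 match at -242. The windows were rich in G and C, at 67.3% for Cebpa and 80.7% for Cebpb against a median of 52.7% over all windows.

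Levels are given as deposited intensities. Differences are on the log2 scale, with SE for the standard error from a limma fit across all genes. A gene was called at a Benjamini-Hochberg adjusted p under 0.05. The targeted gene checked the labels. Nfkbiz read 1512 ± 157 in KO with LPS and 3412 ± 355 in WT with LPS, and 276 ± 9.38 in untreated KO and 433 ± 28.2 in untreated WT (SD, n = 3 each). Each KO array lay below each WT array of the same treatment. As a sum over 10 genes, macrophage markers were bright. The sums were 46999 to 48718 in KO with LPS and 43768 to 45149 in WT with LPS. Untreated, they were 53654 to 56799 in KO and 53591 to 55464 in WT. Single markers varied more among arrays. Timd4 read 719.3, 2608 and 1156 in KO with LPS and 325.7, 384.3 and 372.2 in WT with LPS. Untreated, it read 313.4, 1646 and 407.0 in KO and 289.6, 162.6 and 175.4 in WT. Fcgr1 read 942.2, 425.6 and 2455 in KO with LPS and 407.1, 1817 and 236.6 in WT with LPS. Dendritic cell markers (5 genes) summed to 1012 to 1386 in KO with LPS, 1304 to 1731 in WT with LPS, 942 to 1421 in untreated KO and 2069 to 2616 in untreated WT. Mast cell markers (6 genes) differed among the KO arrays by replicate, at 1273, 601 and 2309 with LPS and 1357, 874 and 2685 untreated, against 609 to 924 in WT with LPS and 709 to 905 in untreated WT. No marker was at 0, since the lowest intensity in the table was 6.96. The part of these cells in the differences below was not tested, apart from fits that left out single arrays. Within each LPS-treated group, the array least like the others was KO replicate 2 (mean r 0.984) and WT replicate 3 (mean r 0.989), and other KO arrays lay as low as 0.988. In these mixed RNA samples, fewer cells of a type and less RNA per cell cannot be told apart.

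LPS lowered Cebpa strongly in both genotypes and raised Cebpb modestly, while the clearest genotype difference in the family was a lower Cebpd in LPS-treated KO cells. In KO cells, LPS lowered 3 of the 6 members (Cebpa, Cebpd and Cebpg) and raised 1 (Cebpb), where 23.8% of all genes were called lower and 21.9% higher. In WT cells it lowered 1 (Cebpa) and raised 1 (Cebpb), where 18.5% of all genes were called lower and 9.53% higher. Between genotypes with LPS, 2 members were lower in KO (Cebpa and Cebpd) and 0 higher, where 4.87% of all genes were called lower and 3.28% higher. Between untreated genotypes 0 members were called (1 of 6 at an unadjusted p under 0.05, Cebpa), where 0.0401% of all genes were called lower and 0.0351% higher. For the interaction, which is the KO response minus the WT response, 0 members were called in the limma fit (2 of 6 at an unadjusted p under 0.05, Cebpa and Cebpd), where 0.446% of all genes were called lower and 0.301% higher.

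**Figure D1:**
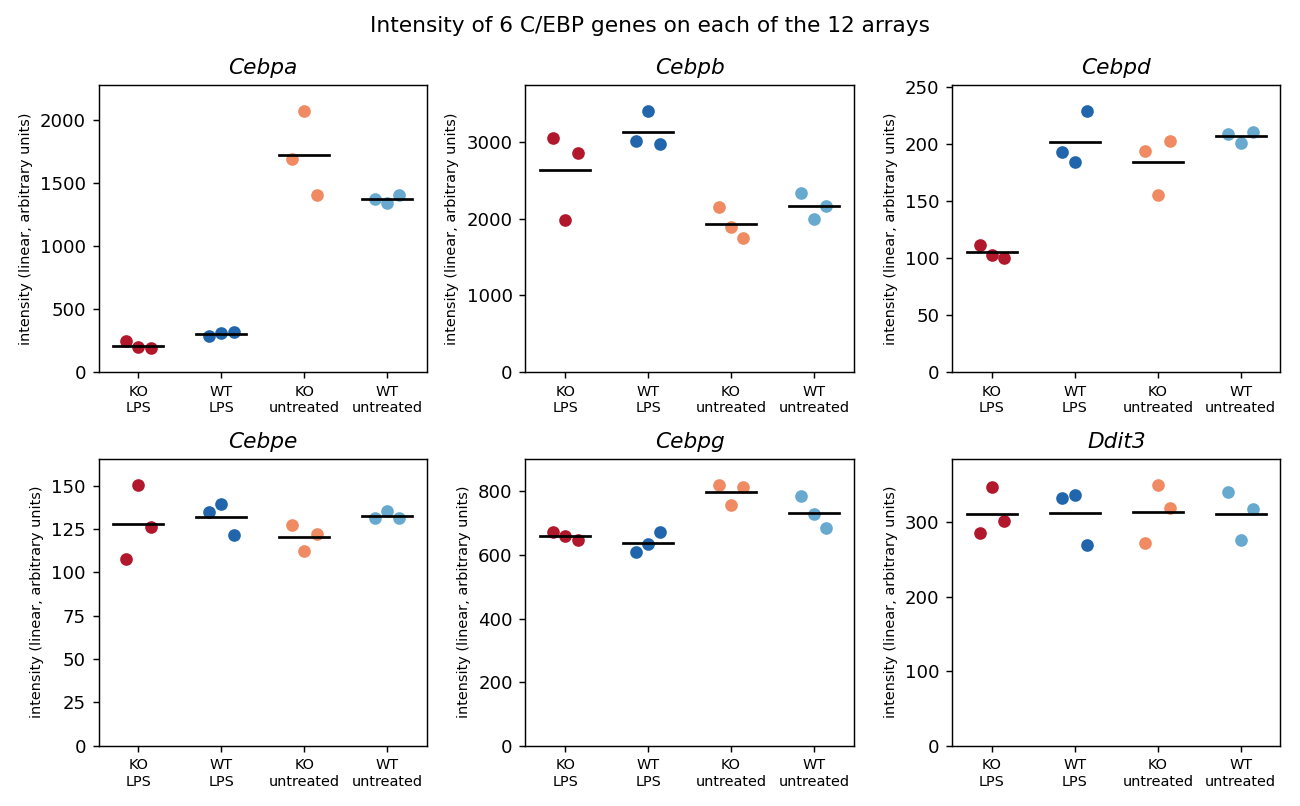
Intensity (linear, arbitrary units, axes from 0) of the 6 measured C/EBP genes on each of the 12 arrays, with the 3 arrays of a group as points in replicate order and the group mean as a line. Cebpa was far lower in both LPS-treated groups, and Cebpd was lowest in LPS-treated KO cells, at 100.1 to 111.7.

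Cebpd, which encodes C/EBPδ, read 111.7, 102.7 and 100.1 in KO with LPS and 192.8, 183.6 and 228.7 in WT with LPS. Untreated, it read 193.9, 155.1 and 202.7 in KO and 208.7, 200.9 and 210.6 in WT. All 3 LPS-treated KO arrays lay below the other 9 arrays, and the other 3 groups overlapped one another. The signal was not bright, as 53.9% of genes had a lower mean over all arrays. In KO with LPS it lay near the array medians, which ran from 110 to 119. How far background signal narrows differences at this level was not tested. The difference between LPS-treated KO and WT was -0.94 (SE 0.11, limma adjusted p = 6.27e-04), a signal 1.92-fold lower in KO. It was called in all 26 alternative fits, between -1.04 and -0.83, the smallest without KO replicate 2 and WT replicate 3 together.

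LPS lowered Cebpd in KO cells (log2 difference -0.80, SE 0.11, limma adjusted p = 1.21e-04). In WT cells the LPS difference was -0.04 (95% interval -0.28 to 0.20, limma adjusted p = 0.814), and its sign turned under other scalings, at 0.12 after quantile normalization and 0.15 after centring on the 75th percentile. The responses differed by -0.76 (SE 0.15), which missed the threshold at a limma adjusted p = 0.0522. Same-numbered KO arrays deviated together over all genes, and with the replicate number as a block among the KO arrays that adjusted p was 0.0283. The interaction passed in 11 of 25 alternatives in all, with adjusted p from 0.00870 to 0.136. Untreated KO cells differed from WT by -0.18 (limma adjusted p = 0.686). The order of group means was untreated WT, WT with LPS, untreated KO and KO with LPS, and only the last step was larger than the spread. Cebpd and Nfkbiz both lie on chromosome 16, with 326 tested genes between them in the RefSeq gene table.

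Cebpa, which encodes C/EBPα, read 245.7, 194.8 and 189.3 in KO with LPS and 282.8, 311.7 and 320.5 in WT with LPS. Untreated, it read 1690, 2071 and 1406 in KO and 1373, 1343 and 1402 in WT. The treated and untreated arrays were far apart in both genotypes. LPS lowered Cebpa 8.16-fold in KO (log2 difference -3.03, SE 0.13, limma adjusted p = 5.34e-08) and 4.51-fold in WT (-2.17, SE 0.13, limma adjusted p = 6.01e-07). By replicate number, the KO differences were -2.78, -3.41 and -2.89, and the WT differences were -2.28, -2.11 and -2.13.

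With LPS, Cebpa was lower in KO than in WT (log2 difference -0.55, SE 0.13, limma adjusted p = 0.0289), with no overlap between the groups. That call was lost when any of 5 arrays was left out: KO with LPS replicate 2 (-0.50) or 3 (-0.48), or WT with LPS replicate 1 (-0.60), 2 (-0.53) or 3 (-0.51). The adjusted p then lay between 0.0555 and 0.113. It was also lost without KO replicate 2 and WT replicate 3 together (-0.46, adjusted p = 0.198), after quantile normalization (-0.51) and after centring on the 75th percentile (-0.47). Untreated, the KO arrays lay above the WT arrays, by a narrow margin for replicate 3, and the difference of 0.31 did not pass (SE 0.13, limma adjusted p = 0.555). The interaction was -0.86 (SE 0.19, limma adjusted p = 0.0743), and it passed in 4 of 25 alternatives, with adjusted p from 0.0249 to 0.198. The replicate block gave an adjusted p of 0.0249 among the KO arrays only, 0.105 over all arrays and 0.0709 as a random effect. The group means ran from untreated KO through untreated WT and WT with LPS to KO with LPS, and the steps that were called are the LPS step and, less firmly, the genotype step with LPS.

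Cebpb, which encodes C/EBPβ, read 3054, 1980 and 2862 in KO with LPS and 3015, 3403 and 2972 in WT with LPS. Untreated, it read 2148, 1890 and 1751 in KO and 2338, 1991 and 2159 in WT. KO replicate 2 with LPS stood low, within the range of the untreated arrays. That array also had the lowest mast cell (601) and B cell (714) marker sums and the highest neutrophil sum (1120). It also had the highest reading of the macrophage marker Timd4 (2608). WT replicate 1 with LPS had a mast cell sum of 609 and read 3015 for Cebpb. Any part of these cells in the Cebpb level was not tested. LPS raised Cebpb 1.35-fold in KO (log2 difference 0.43, SE 0.15, limma adjusted p = 0.0328) and 1.45-fold in WT (0.53, SE 0.15, limma adjusted p = 0.0171). The KO call was lost without KO with LPS replicate 1 (0.31) or 3 (0.36) and without untreated KO replicate 2 (0.42) or 3 (0.36). It was also lost after quantile normalization (0.35), in the 6 KO arrays alone (adjusted p = 0.0907) and at an adjusted p under 0.01. The WT call was lost without replicate 2 with LPS (0.47) or untreated (0.48), and at an adjusted p under 0.01. Neither the genotype difference with LPS (-0.27, 95% interval -0.59 to 0.05, limma adjusted p = 0.324) nor that without (-0.17, limma adjusted p = 0.772) passed. Without KO replicate 2 the LPS-treated genotype difference was -0.08. The interaction was -0.11 (95% interval -0.56 to 0.35, limma adjusted p = 0.881). The group means ran from WT with LPS through KO with LPS and untreated WT to untreated KO, and each pair of neighbours in that order overlapped.

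**Figure D2:**
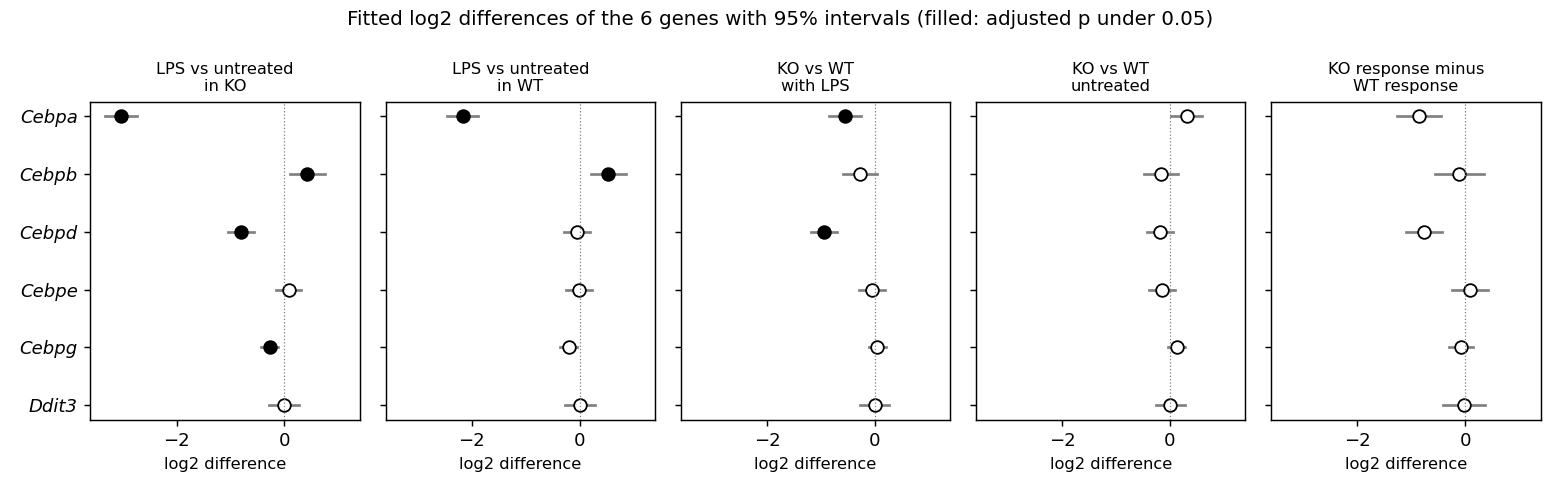
Fitted log2 differences of the 6 genes (points) with 95% intervals (lines) in 5 contrasts, filled where the adjusted p was under 0.05. Cebpa shows the widest shifts with LPS, -3.03 in KO and -2.17 in WT, and Cebpd the most negative genotype difference with LPS, -0.94.

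Cebpe, which encodes the granulocyte factor C/EBPε, was close to level, near the middle of the intensity range (46.8% of genes had a lower mean). It read 108.0, 150.6 and 126.1 in KO with LPS, 135.1, 139.6 and 121.5 in WT with LPS, 127.1, 112.4 and 122.1 in untreated KO, and 131.6, 135.3 and 131.3 in untreated WT. The untreated KO arrays lay just below the untreated WT arrays, and the other groups overlapped. The group means lay within 0.14 of each other on the log2 scale, and 0 of the 5 contrasts were called, with unadjusted p from 0.222 to 0.931. Its LPS difference in KO was 0.08 (95% interval -0.16 to 0.32), which centring on the 75th percentile moved to 0.35 with an adjusted p of 0.0242. Markers of granulocytes, the cells that use this factor, were measured as well. The 5 eosinophil markers summed to 323 to 354 in KO with LPS, 336 to 347 in WT with LPS, 298 to 327 in untreated KO and 324 to 361 in untreated WT. The 10 neutrophil markers summed to 969 to 1120, 968 to 1037, 848 to 945 and 766 to 1009 in the same order of groups.

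Cebpg, which encodes the modulating partner C/EBPγ, read 671.6, 660.0 and 645.3 in KO with LPS and 607.7, 633.2 and 672.5 in WT with LPS. Untreated, it read 820.3, 758.1 and 814.4 in KO and 784.3, 729.5 and 684.4 in WT. LPS lowered it in KO (log2 difference -0.27, SE 0.07, limma adjusted p = 0.00914), a direction that was lost under centring on the 75th percentile (0.002) and a call that was lost under quantile normalization (-0.13). The WT difference of -0.20 (SE 0.07) missed the threshold at a limma adjusted p = 0.0606, although its treated arrays lay below its untreated ones. It passed without WT replicate 3 with LPS (-0.24) or untreated (-0.25), and with array weights (-0.23). The genotypes differed by 0.05 with LPS (95% interval -0.11 to 0.21) and by 0.12 without (-0.03 to 0.28), neither called. The group means ran from untreated KO through untreated WT and KO with LPS to WT with LPS, with overlap between untreated KO and WT and between both treated groups. Cebpg and Cebpa are neighbours on chromosome 7, with 0 tested genes between them, and only Cebpa showed a change of more than 2-fold with LPS.

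Ddit3, which encodes CHOP, stayed at one level. It read 286.1, 347.6 and 302.3 in KO with LPS, 332.8, 336.7 and 269.3 in WT with LPS, 272.4, 350.6 and 319.6 in untreated KO, and 340.9, 276.1 and 317.6 in untreated WT. The ranges of all 4 groups overlapped, and their means lay within 0.01 of each other on the log2 scale. The LPS difference was -0.01 in KO (95% interval -0.28 to 0.27) and 0.00 in WT (-0.27 to 0.28), and 0 of 5 contrasts were called, with unadjusted p from 0.937 to 0.989. Other scalings moved the KO value to 0.30 (quantile, adjusted p = 0.0954) or 0.27 (75th percentile, adjusted p = 0.0900), neither called.

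Some genes that CHOP and its activator ATF4 are known to control rose with LPS, while Ddit3 itself was not called. Of 19 genes of the ATF4-CHOP stress response, 8 rose in KO and 11 were not called, beside 21.9% of all genes called higher. In WT, 9 rose and 10 were not called, beside 9.53% of all genes, and 0 fell in either genotype, with a list median of 0.35 in KO and 0.36 in WT against 0.07 and 0.04 over all genes. The WT count was 5 without WT replicate 1 with LPS, 4 without untreated WT replicate 2 and 3 without untreated WT replicate 3, and the KO count was 6 to 9 with any 1 array left out. Slc7a11, the cystine transporter, rose by 0.54 in KO and 0.57 in WT, and Cth, a cysteine-synthesis enzyme gene, by 0.60 and 0.83. Ppp1r15a, which encodes the phosphatase subunit GADD34, rose by 0.52 in KO, as did Psat1, a serine-synthesis enzyme gene, by 0.79. Of 14 chaperone and unfolded protein response genes, 2 rose and 2 fell in KO, and 3 rose and 1 fell in WT. The shares of all genes called lower were 23.8% in KO and 18.5% in WT, with the higher shares given above. Hspa5, the ER chaperone BiP, rose by 0.92 in KO and 1.09 in WT, and Manf by 0.40 and 0.62. Between genotypes with LPS, limma called 0 of the 19 stress genes and 0 of the 14 chaperone genes. At an unadjusted p under 0.05 there were 2 and 3 of them. Of all genes, 4.87% were called lower and 3.28% higher there. With 1 array left out, up to 1 stress gene and up to 3 chaperone genes were called lower in KO, and with the block among KO arrays 3 stress genes (1 higher and 2 lower) and 1 chaperone gene were called.

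Genes known as C/EBP targets in macrophages or the acute phase were lower more often than higher in LPS-treated KO cells. Of 25 measured, 6 were lower, 1 was higher and 18 were not called, beside 4.87% of all genes called lower and 3.28% higher. The list median was -0.22 against -0.01 over all genes with LPS, and it was nearly as low in untreated cells, at -0.20 against -0.03. The interaction median was -0.06 against 0.02. These targets include genes already known to depend on IκBζ, and the list was chosen with earlier results of these data known. Its counts beside all genes are therefore a description and no test of C/EBP targets. Lcn2, which encodes an iron-sequestering protein, read 67.5, 96.3 and 74.7 in KO and 1802, 2151 and 1902 in WT (log2 difference -4.63, SE 0.25, limma adjusted p = 3.43e-06). Its KO readings lay below the array medians, and how far background signal narrows the difference was not tested. Csf3, which encodes the growth factor G-CSF, read 607.4, 132.6 and 1525 in KO and 6222, 7082 and 5704 in WT (-3.67, SE 0.61, limma adjusted p = 0.00463). Those KO arrays differed among themselves by more than 10-fold, and none reached the WT range. KO replicate 2, the lowest, lay near the untreated arrays.

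Csf3r, which encodes the G-CSF receptor and is a classical C/EBPα target, read 936.9, 1043 and 1125 in KO and 1675, 1921 and 1417 in WT with LPS (-0.68, SE 0.11, limma adjusted p = 0.00385). Il12b, the gene of the subunit shared by IL-12 and IL-23, differed by -1.23, Il4ra, an interleukin-4 receptor gene, by -1.11, and Mrc1, the mannose receptor gene, by -1.77. Orm1, an acute-phase gene, was the 1 target higher in KO, at 584.9, 512.6 and 591.3 against 261.5, 253.3 and 184.9 in WT (1.29, SE 0.15, limma adjusted p = 7.73e-04). These 7 calls held when any of the 12 arrays was left out. Among the 18 genes not called were Il6 (-0.71), Arg1 (-2.01, at 2526 ± 1905 in KO and 6873 ± 90.4 in WT, SD, n = 3 each), Nos2 (-0.15), Ptgs2 (-0.07), Il1b (0.02), Ccl3 (-0.22), Il10 (-0.52), Saa3 (-0.12), Hp (0.27), Cp (-0.40), Ptges (0.01), Il1rn (-0.05), Cd14 (-0.14), Cd163 (-0.23), Msr1 (-0.22), Itgam (-0.23), Csf1r (0.06) and Lyz2 (0.14).

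**Figure D3:**
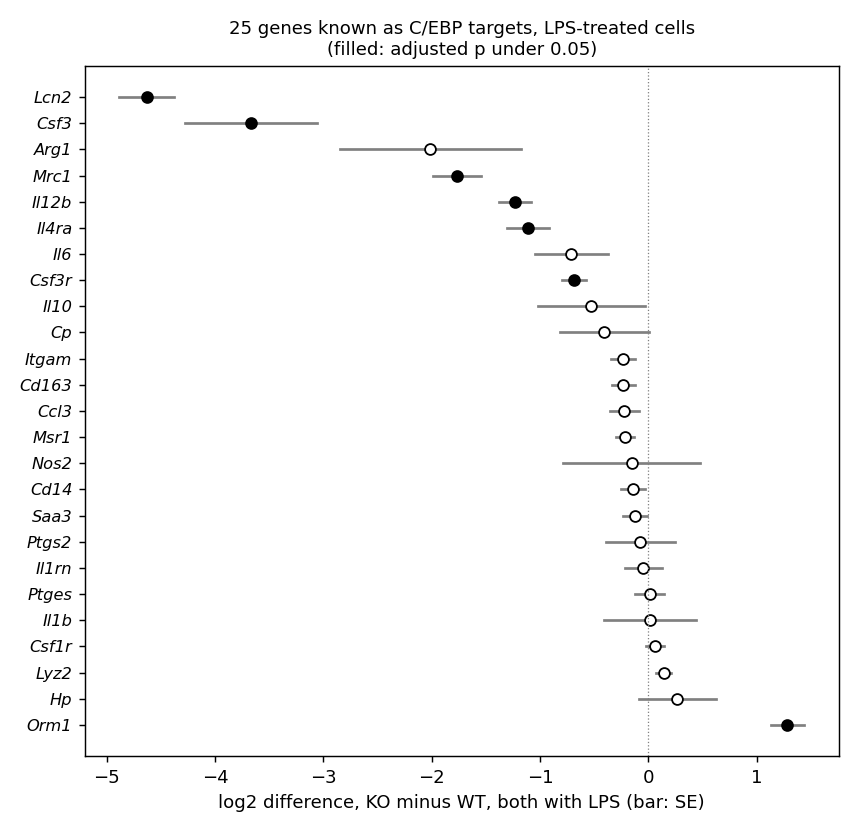
Log2 difference of LPS-treated KO minus LPS-treated WT (points, SE as bars) for the 25 measured genes known as C/EBP targets, filled where the adjusted p was under 0.05. Lcn2 at -4.63 and Csf3 at -3.67 lie lowest, most genes lie near 0, and Orm1 at 1.29 is the called gene on the higher side.

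Not all of these differences arose with LPS. Untreated KO cells already differed from WT at 3 of the 25 targets, beside 0.0351% of all genes called higher and 0.0401% lower. Orm1 was higher (1.31, limma adjusted p = 0.00785), and Ccl3 (-1.45, limma adjusted p = 0.00121) and Mrc1 (-1.67, limma adjusted p = 0.0221) were lower. At an unadjusted p under 0.05 by limma there were 7 of 25, these 3 with Il1b, Il4ra, Lcn2 and Ptgs2. Lcn2, not called (-1.39), read 68.2, 72.9 and 66.9 in untreated KO and 206.3, 266.5 and 109.1 in untreated WT. The Mrc1 call was lost without any 1 of 5 arrays, untreated KO replicate 1 (-1.65) or 2 (-1.50) or untreated WT replicate 1 (-1.72), 2 (-1.69) or 3 (-1.58), and the Orm1 call without untreated WT replicate 3 (1.22). The summed dendritic cell markers given above did not overlap between untreated KO and WT, with 0 of the 5 called by limma, 1 called with the block among KO arrays and 3 of 5 at an unadjusted p under 0.05, and their part in the Mrc1, Orm1 and Ccl3 differences was not tested.

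The LPS responses of 4 of the 25 targets differed between genotypes, beside 0.446% of all genes called lower and 0.301% higher. Those of the other 21 were not called. Those of Lcn2 (0.18 in KO and 3.42 in WT, interaction -3.24), Il12b (1.47 and 2.76, -1.29) and Csf3r (-1.72 and -0.88, -0.85) were lower in KO, and that of Ccl3, which encodes a macrophage chemokine, was higher (2.87 and 1.64, 1.23). The Csf3r call held in only 3 of 12 fits with 1 array removed, and the highest adjusted p among them was 0.110 (-0.79, untreated WT replicate 3 removed). The Il12b call was lost without untreated KO replicate 1 (-1.26) or untreated WT replicate 2 (-1.27). The 21 others ran from Csf3 at -3.30 (limma adjusted p = 0.122) to Il1b at 1.03 (adjusted p = 0.507). In response to LPS itself, 13 of the 25 rose and 4 fell in KO, beside 21.9% and 23.8% of all genes. The same counts held in WT, beside 9.53% and 18.5% of all genes, but not all for the same genes. Il1b was called higher only in KO and Lcn2 only in WT. Msr1 was called lower only in KO and Lyz2 only in WT. Il6 rose by 6.73 in KO and 6.80 in WT, Nos2 by 3.73 and 3.55, and Csf1r, the M-CSF receptor gene, fell by 0.68 in KO and 0.69 in WT.

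Neutrophil granule genes known to need C/EBPε moved little as a list, while Lcn2 among them responded by 3.42 in WT and 0.18 in KO. Ngp, Bpi, Ltf and Olfm4 read below the array medians of 110 to 119 on every array, so changes in them could not be judged. Lcn2 also read below those medians on the KO arrays, at 66.9 to 96.3, so its KO response of 0.18 could not be judged either. Of 8 measured, 2 rose and 1 fell with LPS in each genotype (in KO, 0 rose without replicate 3 with LPS or untreated). Those called higher were Camp and Ltf in KO, and Camp and Lcn2 in WT. The KO count thus includes Ltf, which is too dim to judge. Of all genes, 21.9% rose and 23.8% fell in KO, and 9.53% rose and 18.5% fell in WT. With LPS, 1 of the 8 was lower in KO than in WT, Lcn2, described above, beside 4.87% of all genes. Mmp8, a neutrophil collagenase gene, fell by 0.88 in KO and 0.80 in WT.

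Other bZIP genes, some of whose products can pair with C/EBP proteins, changed in both directions. Of 29 measured, 9 rose and 6 fell with LPS in each genotype, but not all were the same genes. Batf was called lower only in KO. Atf1 was called lower, and Jund, Mafg and Nfe2l1 higher, only in WT. The shares of all genes called higher and lower were 21.9% and 23.8% in KO, and 9.53% and 18.5% in WT. With 1 array left out, the WT counts ran from 5 to 10 higher, the lowest without untreated WT replicate 3, and from 3 to 6 lower, the lowest without WT replicate 1 or 2 with LPS. Maff, a small Maf gene, rose by 2.87 in KO and 2.36 in WT, Junb by 1.58 and 0.97, Fosl1 by 1.43 and 1.32, and Crem by 1.28 and 1.00, while the circadian output gene Dbp fell by 1.78 and 1.92. With LPS, 3 were lower and 2 higher in KO than in WT, beside 4.87% and 3.28% of all genes. Batf read 159.1, 181.5 and 186.9 in KO and 368.7, 354.6 and 503.0 in WT (log2 difference -1.20, SE 0.13, limma adjusted p = 4.37e-04). As with Cebpd, its LPS-treated KO arrays lay below the other 9 arrays. Bach1, a haem-regulated repressor gene, was lower as well (-0.69, SE 0.09, limma adjusted p = 9.04e-04). The interferon-inducible Batf2 was higher (1.90, SE 0.39, limma adjusted p = 0.0122), at 1285, 1927 and 1945 in KO and 471.1, 891 and 220.2 in WT. Untreated WT read 221.2, 226.9 and 209.8, so WT replicate 3 with LPS stood at the untreated level. The interaction was called for 2 of the 29, both lower in KO, beside 0.446% of all genes called lower and 0.301% higher. At an unadjusted p under 0.05 by limma there were 9 of 29, and the share of all genes at that threshold is not given here.

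**Figure D4:**
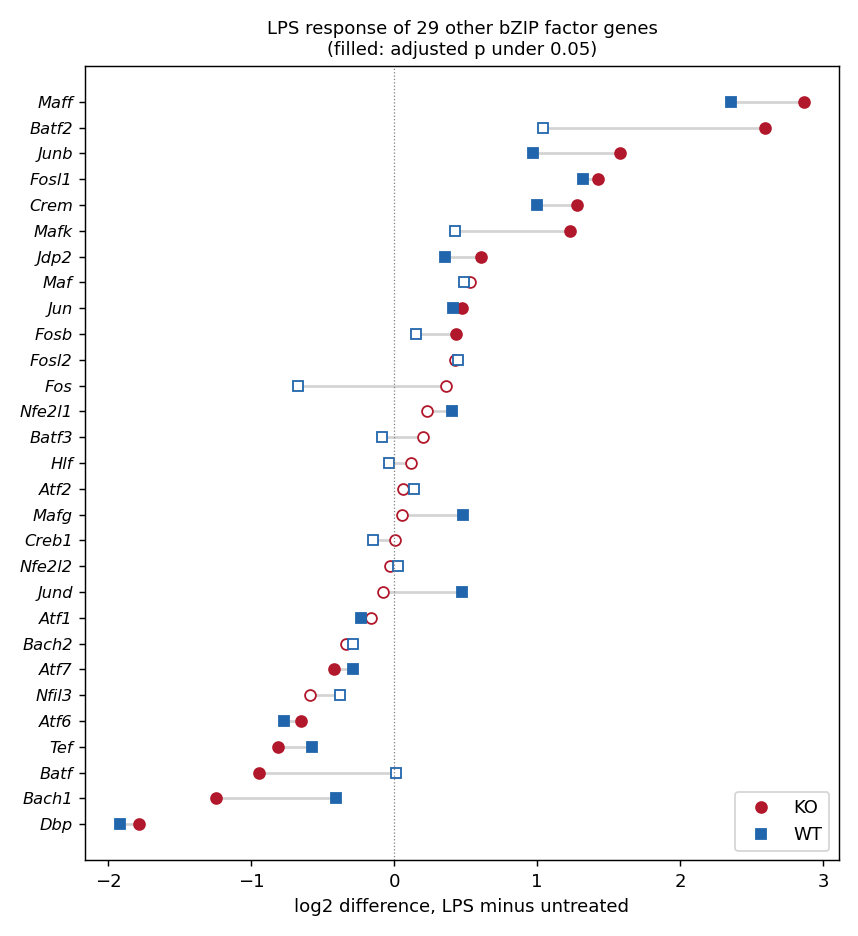
Log2 difference of LPS-treated minus untreated cells for 29 other bZIP factor genes, with KO as circles and WT as squares, filled where the adjusted p was under 0.05. Most pairs lie close together, whereas Batf lies at -0.94 in KO and 0.01 in WT, and Bach1 at -1.24 in KO and -0.41 in WT. Batf2 lies further apart than either, higher in KO, but its interaction was not called.

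Among 18 other myeloid transcription factor genes, 4 were higher in LPS-treated KO than in WT and 0 lower. Of all genes, 3.28% were called higher and 4.87% lower. Klf4 stood higher by 1.28 (SE 0.17, limma adjusted p = 0.00142), Mitf by 0.87 and the growth-response gene Egr1 by 1.07. A further Mitf probe set gave 0.68, not called (adjusted p = 0.0515), and its interaction of 0.54 was not called either (adjusted p = 0.431). Egr2 (1.05), Mafg (-0.51) and Mafk (0.68), the ubiquitin ligase gene Cop1 (-0.33) and the SUMO ligase gene Pias4 (-0.36) were called as well, but these 5 calls were lost in 3 to 10 of the 12 fits that left out 1 array. All 5 were lost without WT replicate 1 with LPS (1.21, -0.51, 0.66, -0.32 and -0.38) and without WT replicate 3 with LPS (1.18, -0.42, 0.52, -0.34 and -0.31).

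Signals known to act upstream of Cebpb and Cebpd changed with LPS in both genotypes, and none of the 10 measured was called between genotypes in either treatment by limma (3 of 10 with LPS and 3 of 10 untreated at an unadjusted p under 0.05). With LPS, 5 rose and 3 fell in KO, beside 21.9% and 23.8% of all genes. In WT, 5 rose and 3 fell, beside 9.53% and 18.5% of all genes. With 1 array left out, 3 to 4 rose in KO, the lowest without KO replicate 1 or 3 with LPS or untreated KO replicate 1, and 3 to 5 in WT, the lowest without WT replicate 2 with LPS or untreated WT replicate 3. Il6ra, the interleukin-6 receptor gene, fell by 2.55 in KO and 2.46 in WT, and Il6st, its signalling partner gp130, by 1.29 and 1.38. Myd88, the adaptor of TLR4, rose by 0.78 in KO and 0.56 in WT. Of 13 regulators of C/EBP proteins, 5 rose and 2 fell in KO and 3 rose and 2 fell in WT, beside the same shares of all genes. The eIF2α kinase gene Eif2ak2, which encodes PKR, rose by 2.18 in KO and 1.69 in WT, and the kinase gene Eif2ak3 (PERK) fell by 1.71 in KO and fell by 1.09 in WT. Eif2ak4, which encodes GCN2, fell by 1.26 in KO and fell by 0.81 in WT. The deacetylase gene Sirt1 was higher in LPS-treated KO than in WT (0.89, SE 0.15, limma adjusted p = 0.00558).

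Each called member had other genes of closely similar pattern over the 12 arrays, given by Pearson's r of log2 intensity as a description. The treated and untreated arrays form separate clusters, so r is also given within the 6 LPS-treated arrays. Those arrays include both genotypes, which lay apart for Cebpd and Cebpa, so r within them also carries that gap. For Cebpd the nearest were Crebl2 (r = 0.988, and 0.996 with LPS), Sh3bp5 (0.977 and 0.987) and Stard4 (0.974 and 0.980). Crebl2, another bZIP gene, averaged 221 in KO with LPS, 340 in WT with LPS, 319 in untreated KO and 347 in untreated WT. For Cebpa the nearest were Btbd2 (0.995 and 0.926), Mpdu1 (0.995 and 0.861) and Cirbp (0.995 and 0.897). For Cebpb they were Il10 (0.969 and 0.958), Nudt18 (0.963 and 0.949) and Tmtc2 (0.953 and 0.982). For Cebpg they were Ulk1 (0.948 and 0.478), Ppat (0.943 and 0.647) and Cfap410 (0.941 and 0.320). Within the 6 untreated arrays, these 3 stood at 0.955, 0.928 and 0.937. In the order given above, the untreated r was 0.907, 0.811 and 0.978 for the genes nearest Cebpd. It was 0.779, 0.949 and 0.978 for those nearest Cebpa, and 0.871, 0.781 and 0.594 for those nearest Cebpb.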

How the data were processed

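RNA of 12 peritoneal macrophage samples was measured on one-colour Affymetrix arrays. The deposited intensity values are linear and came from the authors' RMA summary. Per the submitters' processing notes, the software was Affymetrix Expression Console 1.1, and no further settings are given. The table holds 35556 probe sets, of which 21789 have 1 gene symbol, 1621 several and 12146 none in the platform annotation. The brightest probe set of each gene gave 19938 genes, 19856 of them found in the RefSeq table. Array medians of the deposited intensity ran from 110 to 119, and replicate arrays correlated at 0.982 to 0.996. The number of arrays, 3 a group, limits the precision.

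Intensities were taken to log2 with no pseudocount and fitted with limma 3.58.1 in R 4.3.3 (4 group means, moderated variance, two-sided, Benjamini-Hochberg over all genes). The model was tested on simulated data. The members, gene lists and tests were chosen with earlier results of these data known. Named list genes were up to 6 called genes a list and contrast with the largest difference, preferring those called in each fit that left out 1 array (a preference set after their values were seen), all C/EBP targets, and the 3 genes most like each called member. Same-numbered KO arrays deviated together (correlations 0.322, 0.568 and 0.459), which the WT arrays did not all do (-0.07, 0.143 and 0.359), so the replicate number was used as a block among KO arrays as an alternative chosen after seeing the data. Other alternatives changed the scaling, gene filter, variance model, array weights, probe set choice, samples, threshold and replicates.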

Additional observations from a re-analysis of the deposited data

Results flagged for a closer look

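The LPS response differed between genotypes by the interaction test for 9 genes of the lists, none of them a C/EBP member. Of all genes, 0.446% were called lower and 0.301% higher. Among 25 C/EBP targets 3 were lower and 1 higher, and among 29 other bZIP genes 2 were lower. Among 18 other myeloid factor genes 2 were higher, and among 10 macrophage markers 1 was higher. The lists were chosen with earlier results of these data known, so these counts are a description and no test. Lcn2 responded by 0.18 in KO, where it read below the array medians, and 3.42 in WT, a difference of -3.24 (limma adjusted p = 0.00262). Il12b responded by 1.47 in KO and 2.76 in WT, a difference of -1.29 (limma adjusted p = 0.0168). Csf3r fell by 1.72 in KO and 0.88 in WT, a difference of -0.845 (limma adjusted p = 0.0361). Ccl3 responded by 2.87 in KO and 1.64 in WT, a difference of 1.23 (limma adjusted p = 0.0136). Bach1 fell by 1.24 in KO and 0.41 in WT, a difference of -0.84 (limma adjusted p = 0.00997). Batf responded by -0.94 in KO and 0.01 in WT, a difference of -0.96 (limma adjusted p = 0.0472). Klf4 responded by 0.64 in KO and -0.69 in WT, a difference of 1.33 (limma adjusted p = 0.0361). Mitf responded by 0.25 in KO and -0.77 in WT, a difference of 1.015 (limma adjusted p = 0.0189), and its further probe set gave 0.54, not called (limma adjusted p = 0.431). Mertk, a receptor gene for uptake of dead cells and a macrophage marker, responded by 0.58 in KO and -0.69 in WT, a difference of 1.27 (limma adjusted p = 0.00530).

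When 1 array was left out, the calls of Lcn2, Ccl3, Bach1 and Mertk held in all 12 fits, and those of Batf, Csf3r, Klf4, Mitf and Il12b were lost in 11, 9, 8, 4 and 2 of them.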

How the results depend on the processing

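Over 769 alternative values of 30 member differences, 718 kept their direction and call or moved by less than their error, 21 lost their call, 20 gained one, 9 moved without a call and 1 reversed, the LPS difference of Cebpg in KO, at 0.002 after centring on the 75th percentile. The count of members called with LPS in KO was 4, and 2 after quantile normalization. In WT it was 2, 1 at an adjusted p under 0.01 and 1 to 3 with 1 array left out. Between genotypes with LPS it was 2, and 1 after quantile normalization, centring on the 75th percentile, in the 6 arrays alone, at an adjusted p under 0.01 and without KO replicate 2 and WT replicate 3, and 1 to 2 with 1 array left out. For the interaction it was 0, and 1 under quantile normalization, centring on the 75th percentile or the median, the filter on dim genes, the intensity trend, and the replicate block as a fixed or a random effect, 2 with array weights and with the block among KO arrays, and 0 to 1 with 1 array left out. The block among KO arrays, with its pairing, changed no other member's call, and it called 211 genes untreated, where 15 were called, and 347 for the interaction, where 149 were called.

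Centring on the 75th percentile moved the median LPS difference of all genes to 0.35 in KO and 0.23 in WT, so small differences with LPS are relative to the scaling. It called 14970 genes in KO (80.2% higher) where 9105 were called (47.9%), 11158 in WT (77.5%) where 5594 were called (34.0%), and 30 untreated where 15 were called. The share called higher moved with it between genotypes with LPS (56.3% and 40.2%) and in the interaction (59.1% and 40.3%). In WT, quantile normalization gave 47.8% higher. Array weights called 10113 genes in WT, 3296 between genotypes with LPS, where 1623 were called, 46 untreated and 667 for the interaction. The 6 arrays alone called 492 between genotypes with LPS and 2 untreated. Leaving out WT replicate 1 or 3 with LPS left 754 and 712 genes between genotypes. With 1 array left out, the interaction called 55 (untreated KO replicate 1) to 365 genes (WT replicate 2 with LPS), and untreated cells 6 (untreated WT replicate 3) to 23 genes (KO replicate 2 with LPS).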

Other observations

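Cebpzos, a small gene that lies beside Cebpz, had a probe set of its own, and its symbol is no match for Cebpz. It read 128 ± 5.94 in KO with LPS and 151 ± 35.5 in WT with LPS, and 335 ± 43.3 in untreated KO and 341 ± 15.5 in untreated WT (SD, n = 3 each). LPS lowered it in KO (log2 difference -1.38, SE 0.15, limma adjusted p = 2.38e-05) and in WT (-1.21, SE 0.15, limma adjusted p = 9.87e-05), and the genotypes differed by -0.21 with LPS, not called (limma adjusted p = 0.507). Whether its probes also read Cebpz transcripts was not tested.

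Among cell type markers, 3 were called between LPS-treated genotypes, beside 4.87% of all genes called lower and 3.28% higher. Of 10 macrophage markers, 1 was higher and 1 lower in KO, and of 6 T and NK cell markers, 1 was higher. None of the other marker lists held a call there. Mertk was higher in KO (1.29), Adgre1, the F4/80 gene, lower (-0.35) and the T cell gene Cd3e higher (0.29). The Adgre1 and Cd3e calls were lost without WT replicate 1 (-0.37 and 0.27) or 3 (-0.31 and 0.29) with LPS, and in 3 and 5 of the 12 left-out fits in all.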
